A study of Mus musculus with 6 samples.

Results

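The genes described here are 9 transcription factors of stroma and mesenchyme, namely Foxd1, Tcf21, Meis1, Meis2, Nr2f1, Nr2f2, Twist1, Prrx1 and Prrx2. They were chosen by symbol, with earlier results of these data known. Shares of all genes set beside their counts are therefore a description and not a test. Members on the array were all probe sets that the platform annotation assigns to exactly 1 of these symbols. This gave 25 of 45037 probe sets and 9 of 18193 genes. The material was EGFP-positive cells, sorted by flow cytometry out of the E11.5 mouse intermediate mesoderm region, with 1 one-colour array for each of 6 RNA samples. The Pax2 null group (3 arrays) carried EGFP on both alleles (EGFP/EGFP), and the Pax2 heterozygote group (3 arrays) carried 1 EGFP allele (EGFP/+). Every sample therefore carried EGFP, and no wild-type cells were compared. The labels do not say whether a sample was 1 embryo or a pool, nor whether arrays came from separate litters, so that p-values measure only how these samples vary, some of which may be technical. In a bulk sample, fewer cells of a type and less RNA per cell cannot be told apart.

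The intermediate mesoderm forms the kidneys and the gonads. In the forming kidney, a duct epithelium branches into a mesenchyme that holds nephron progenitors, and around these lie stromal cells that support and pattern both. Foxd1 is a forkhead factor that marks the cortical stromal progenitors, and Tcf21 is a basic helix-loop-helix (bHLH) factor of kidney mesenchyme, stroma and podocytes. Meis1 and Meis2 are TALE homeodomain proteins that act as partners of Hox and Pbx proteins, and Nr2f1 and Nr2f2 are the orphan nuclear receptors COUP-TFI and COUP-TFII. Twist1 is a bHLH factor of mesodermal and neural crest mesenchyme, and Prrx1 and Prrx2 are paired-related homeodomain factors of limb, craniofacial and other mesenchyme.

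Prrx2 was higher in null cells and passed the test over all genes, and Twist1 had the largest difference of the 9 genes without passing in the same fit. The other 7 genes had positive differences of 0.12 to 0.69 on the log2 scale and did not pass, so that 9 of 9 differences were above 0, against 46.4% of all genes. Without heterozygote 1 this was 6 of 9, since Tcf21, Meis2 and Nr2f2 turned negative. Of the 9 genes, 1 rose and 0 fell (limma, Benjamini-Hochberg adjusted p under 0.05 over 18193 genes), against 0.808% of all genes that rose and 0.583% that fell. At an unadjusted p under 0.05, 5 of the 9 were higher and 0 lower, against 5.08% and 4.65% of all genes. The median difference was 0.55 over the 9 genes and -0.02 over all genes. A gene with several probe sets is given by the one whose mean on the 6 arrays was highest, and differences are null minus heterozygote on the log2 scale, with standard errors (SE) from the fit.

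The arrays stood close together, with correlations of 0.976 to 0.991 within a genotype over all probe sets and medians between 6.12 and 6.24 (log2). No batch is named in the labels. The spiked hybridization controls, 18 probe sets, nevertheless joined the 6 arrays into 3 pairs, each with 1 array of each genotype (best of 15 matchings, with a total distance of 0.464, where the next had 1.19). Pair 1 was null 3 with heterozygote 1, pair 2 was null 1 with heterozygote 2, and pair 3 was null 2 with heterozygote 3. Replicate numbers follow sample order, so these pairs come from the data and not from the labels. With the pair as a block, 2 of the 9 genes rose and 0 fell, against 2.67% and 1.9% of all genes. The 25 probe sets had means of 5.19 to 11.86, all above the 33rd percentile of all probe sets, which was 4.81. Twist1 in heterozygote 2 (5.91) lay under the array medians, and Prrx2 in heterozygotes (6.44 to 6.80) a little above them. Whether such levels exceed background was not tested.

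The promoters of Prrx2 and Twist1, the genes that passed in either fit, are shown with those of Prrx1, the paralogue of Prrx2, and of Foxd1, the stromal marker, so that these start regions can be read side by side. The sequences are RefSeq windows of GRCm38.p6, 300 bases long, from 250 bases before to 50 bases after the start site, 5′ to 3′ on the gene's strand. Capitals mark matches, on either strand, to CANNTG (the E-box of bHLH factors such as Twist1 and Tcf21), TGACAG (a Meis core), TAATTA (a homeodomain core), AGGTCA (a nuclear receptor half-site) or TGTTTAC (a forkhead core).
Prrx2 promoter, chr2:30845117-30845416, plus strand: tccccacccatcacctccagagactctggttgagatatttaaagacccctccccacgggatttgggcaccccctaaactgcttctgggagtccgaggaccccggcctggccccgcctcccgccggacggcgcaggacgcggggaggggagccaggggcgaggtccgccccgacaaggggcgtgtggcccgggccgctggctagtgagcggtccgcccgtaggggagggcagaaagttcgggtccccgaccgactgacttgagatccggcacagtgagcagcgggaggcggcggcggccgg
Twist1 promoter, chr12:33957421-33957720, plus strand: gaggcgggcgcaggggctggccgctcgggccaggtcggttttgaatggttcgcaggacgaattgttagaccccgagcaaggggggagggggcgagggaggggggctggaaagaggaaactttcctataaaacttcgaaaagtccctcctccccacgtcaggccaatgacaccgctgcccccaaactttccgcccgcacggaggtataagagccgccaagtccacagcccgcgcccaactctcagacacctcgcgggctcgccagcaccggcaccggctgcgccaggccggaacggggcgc
Prrx1 promoter, chr1:163313601-163313900, minus strand: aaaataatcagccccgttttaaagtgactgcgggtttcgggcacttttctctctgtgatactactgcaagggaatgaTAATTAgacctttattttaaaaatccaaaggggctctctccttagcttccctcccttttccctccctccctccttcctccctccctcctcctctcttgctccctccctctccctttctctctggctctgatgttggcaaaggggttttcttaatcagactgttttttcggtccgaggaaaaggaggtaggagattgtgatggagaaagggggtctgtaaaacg
Foxd1 promoter, chr13:98353995-98354294, plus strand: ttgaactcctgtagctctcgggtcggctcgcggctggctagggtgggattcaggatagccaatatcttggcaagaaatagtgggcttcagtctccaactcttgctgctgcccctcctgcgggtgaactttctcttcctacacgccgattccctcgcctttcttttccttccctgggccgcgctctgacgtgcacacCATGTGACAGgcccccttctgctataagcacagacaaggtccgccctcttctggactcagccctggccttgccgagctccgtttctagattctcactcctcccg

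The windows of Prrx2 and Twist1 held none of the 5 motifs. The Prrx1 window held 1 TAATTA, which begins at position -173 from the start site. The Foxd1 window held an E-box, CATGTG, whose last 2 bases are also the first 2 of a TGACAG, which begin at positions -54 and -50. All 9 genes had a window in the table, and Nr2f1 had 2, so 10 windows were searched. An E-box was present in 4 of the 10, against 72.3% of 32851 windows of the same length, TGACAG in 1 against 19.2%, TAATTA in 1 against 5.29%, TGTTTAC in 1 against 3.65% and AGGTCA in 0 against 16.3%. GC content was 70.3% for Prrx2, 66.0% for Twist1, 57.7% for Foxd1 and 47.7% for Prrx1, against a median of 52.7% over all windows. These matches are a description of letters in these windows only.

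Prrx2, on mouse chromosome 2 (GRCm38.p6, chr2:30845064-30881251), is represented by 1 probe set. Its log2 levels were 7.72, 7.74 and 8.03 in null cells, against 6.80, 6.44 and 6.68 in heterozygous cells. All 3 null arrays stood above all 3 heterozygote arrays, and the spread within each genotype was small beside the gap. The means were 7.83 ± 0.18 in null and 6.64 ± 0.18 in heterozygous cells (SD, n = 3 each), a difference of 1.19 ± 0.17 (SE) or 2.29-fold (limma, adjusted p = 0.0190). The difference was 1.24, 1.28 and 1.06 in pairs 1, 2 and 3, and with the pair as a block limma's adjusted p came to 0.00857. The call held in 1 of the 6 fits with 1 array left out, that without heterozygote 1, and limma's adjusted p was between 0.0518 and 0.0863 in the other 5, with differences of 1.09 to 1.25.

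Its paralogue Prrx1, which is needed with Prrx2 for normal limb and craniofacial skeletal development in the mouse, did not pass. The levels of its highest probe set were 9.39, 9.08 and 8.98 in null cells, against 7.95, 8.52 and 8.91 in heterozygous cells. The genotypes did not overlap, but heterozygote 3 came close to the lowest null array. The difference was 0.69 ± 0.26 (SE), with a 95% interval of 0.10 to 1.28 (limma, adjusted p = 0.391, and 0.120 with the pair as a block). All 6 Prrx1 probe sets had positive differences, from 0.14 to 0.78, and none passed on its own among 45037 probe sets. Within pairs the highest probe set differed by 1.02, 0.87 and 0.18, so that pair 3 gave the smallest difference. Whether the differences of Prrx2 and Prrx1 were unequal was not tested.

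Twist1, on chromosome 12 (chr12:33957671-33959831), also has 1 probe set. Its log2 levels were 8.73, 9.07 and 9.69 in null cells, against 7.96, 5.91 and 7.16 in heterozygous cells. Every null array stood above every heterozygote array, and heterozygote 2 lay far under the other two heterozygotes. The means were 9.16 ± 0.48 in null and 7.01 ± 1.03 in heterozygous cells (SD, n = 3 each), a difference of 2.15 ± 0.49 (SE) or 4.45-fold with a 95% interval of 1.03 to 3.28. Over all genes it missed the threshold (limma, adjusted p = 0.102). The heterozygote SD of Twist1 was larger than that of 99.7% of all genes, whose median SD in heterozygotes was 0.23.

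The pairs of arrays gave differences of 1.72, 2.82 and 1.92 for Twist1, and with the pair as a block its adjusted p in limma was 0.0112. It also passed without heterozygote 1 (2.63, limma adjusted p = 0.0252), with array weights (0.0289) and with each array centred on its median (0.0461). It reached an adjusted p of 0.253 without null 2. By size, the difference of Twist1 ranked at 27 of 18193 genes from the highest down, that of Prrx2 at 223. In both genes null 3 was the highest array of all and heterozygote 2 the lowest.

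**Figure D1:**
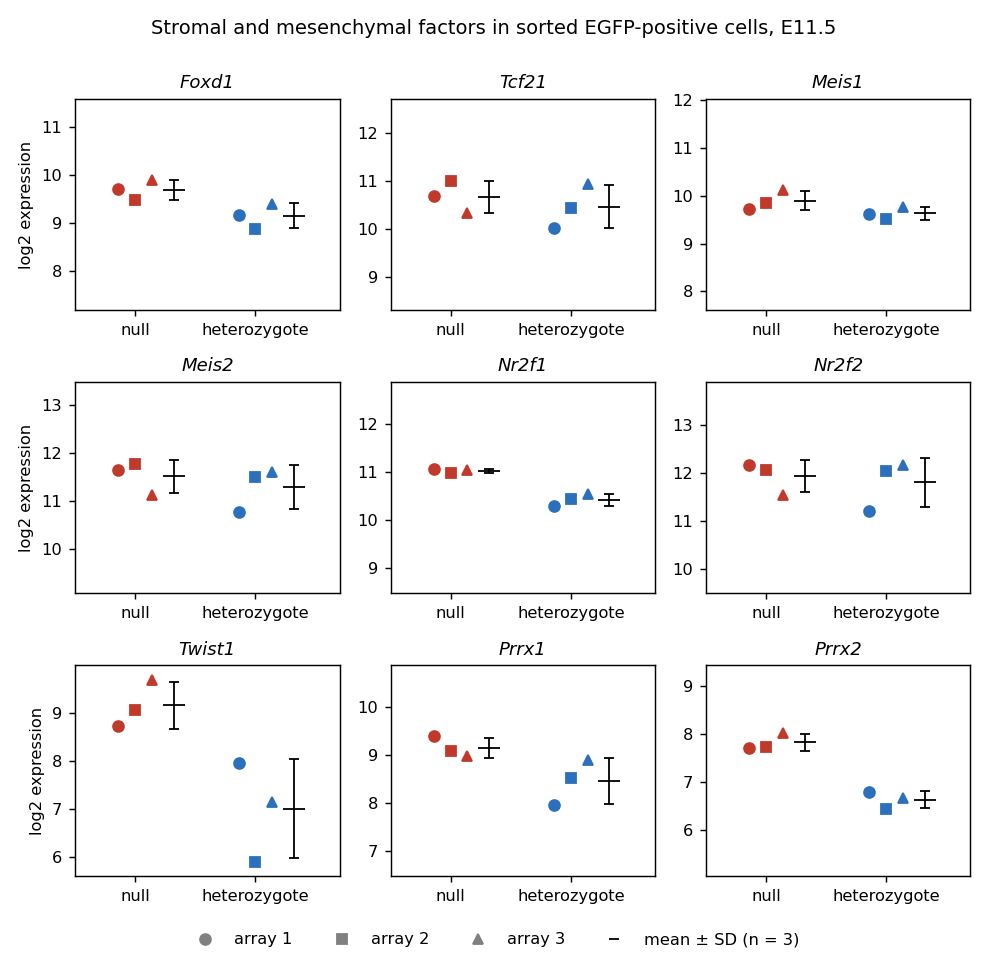
Log2 expression of the 9 genes on each array, null at left and heterozygote at right, with the mean and SD of 3 arrays; every panel spans the same number of log2 units, so that differences can be compared between panels. The null arrays of Twist1 (8.73 to 9.69) and Prrx2 (7.72 to 8.03) lie above the heterozygote arrays (5.91 to 7.96 and 6.44 to 6.80), while the groups overlap in Tcf21, Meis1, Meis2 and Nr2f2.

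Foxd1 (chr13:98354245-98356705), the defining factor of cortical stroma, did not pass. Its levels were 9.70, 9.47 and 9.89 in null cells, against 9.17, 8.87 and 9.39 in heterozygous cells. The genotypes did not overlap, though null 2 and heterozygote 3 nearly met. The difference was 0.55 ± 0.19 (SE), 1.46-fold, with a 95% interval whose lower end was 0.10 (limma, adjusted p = 0.351, and 0.165 with the pair as a block). Within pairs it was 0.73, 0.84 and 0.09.

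Nr2f1 (chr13:78188971-78198873), an orphan receptor of neural and mesenchymal cells, had the tightest groups of the 9 genes. Its levels were 11.06, 10.98 and 11.04 in null cells, against 10.30, 10.44 and 10.54 in heterozygous cells. The groups did not overlap, and the 3 null arrays were almost equal. The means were 11.03 ± 0.04 in null and 10.43 ± 0.12 in heterozygous cells (SD, n = 3 each), a difference of 0.60 ± 0.15 (SE) or 1.52-fold with a 95% interval of 0.26 to 0.94. It did not pass (limma, adjusted p = 0.126), and came to 0.0518 with the pair as a block. Its differences within pairs were 0.75, 0.62 and 0.44, and it was called under none of 15 alternatives, with adjusted p-values from 0.0518 to 0.367.

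Its paralogue Nr2f2, a receptor known from the mesenchyme of many organs and from venous endothelium, has 6 probe sets that disagreed in sign. The levels of the highest were 12.16, 12.06 and 11.54 in null cells, against 11.21, 12.03 and 12.16 in heterozygous cells. The groups overlapped, with the lowest array of each genotype belonging to pair 1. The difference was 0.12 ± 0.29 (SE), with a 95% interval of -0.54 to 0.79 (limma, adjusted p = 0.992). Without heterozygote 1 it was -0.17. Over the 6 probe sets, 4 differences were positive and 2 negative, from -0.14 to 0.36, and none passed. A difference as large as that of Nr2f1 thus lies inside the interval of Nr2f2, and whether the 2 genes differed from each other was not tested.

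Meis1, which with Meis2 binds DNA beside Hox proteins, had levels of 9.72, 9.84 and 10.12 in null cells, against 9.61, 9.51 and 9.77 in heterozygous cells for its highest probe set. Heterozygote 3 stood above null 1, so the groups overlapped. The difference was 0.26 ± 0.17 (SE), with a 95% interval of -0.13 to 0.65 (limma, adjusted p = 0.796). All 3 Meis1 probe sets were positive, from 0.26 to 0.51. The 2 dimmer ones had their lowest value in heterozygote 1 (6.59 and 6.28), against 6.88 to 8.03 on the other 5 arrays.

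Meis2 had levels of 11.64, 11.78 and 11.12 in null cells, against 10.78, 11.495 and 11.61 in heterozygous cells. The groups overlapped, and the 2 arrays of pair 1 were the lowest of their genotypes. The difference was 0.22 ± 0.27 (SE), with a 95% interval of -0.41 to 0.84 (limma, adjusted p = 0.970). Without heterozygote 1 it was -0.04. Of its 4 probe sets, 3 were positive and 1 negative, from -0.12 to 0.22.

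Tcf21 had levels of 10.68, 11.00 and 10.33 in null cells, against 10.03, 10.45 and 10.94 in heterozygous cells. The groups overlapped over most of their range, again with the pair 1 arrays lowest in each genotype. The difference was 0.20 ± 0.27 (SE), with a 95% interval of -0.42 to 0.82 (limma, adjusted p = 0.974). Its second, dimmer probe set had a difference of -0.07. Without heterozygote 1 the difference was -0.02.

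**Figure D2:**
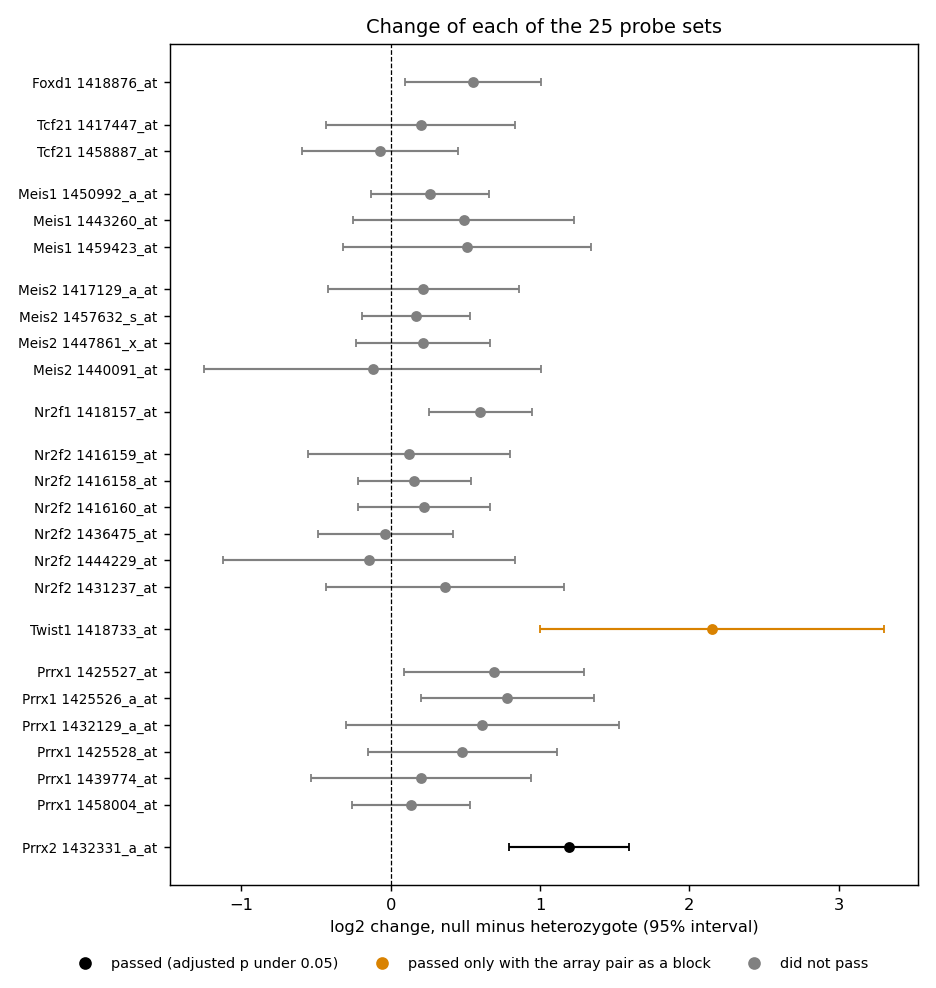
Difference of each of the 25 probe sets, null minus heterozygote in log2 units, with 95% intervals from limma over 45037 probe sets; black marks the probe set that passed, orange the one that passed only with the array pair as a block. Prrx2 (1.19) and Twist1 (2.15) stand right of the rest, while the other 23 lie between -0.14 and 0.78.

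Over probe sets, 21 of 25 had positive differences, against 47.4% of all probe sets, and the median was 0.22 against -0.01. Probe sets of 1 gene share its transcripts and are not independent. Tested singly among 45037 probe sets, 1 of the 25 rose, that of Prrx2, and 0 fell, against 0.391% and 0.3% of all (limma, adjusted p under 0.05), and at an unadjusted p under 0.05 they numbered 6 higher and 0 lower, against 4.03% and 3.63%. All null arrays stood above all heterozygote arrays in 6 of the 25 and below them in 0, against 5.56% and 6.13% of all probe sets. In 5 genes (Foxd1, Nr2f1, Twist1, Prrx1 and Prrx2) all null arrays stood above all heterozygote arrays, as in 6.49% of all genes, and in 0 did they stand below, as in 7.16%.

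Single heterozygote arrays weighed on several of these values. Heterozygote 1 was the lowest of the 6 arrays for 5 of the 9 genes and for 14 of the 25 probe sets, against 14.6% of all genes and 21.3% of all probe sets. Heterozygote 2 was the lowest for the other 4 genes and for 8 probe sets, against 17.5% and 14.3%. In genes higher in null the lowest array is mostly a heterozygote, so these shares are not a like comparison. The median difference of the 9 genes was 0.44 without heterozygote 1 and 0.41 without heterozygote 2. Null 3, the partner of heterozygote 1, was in turn the lowest null array for the 4 genes Tcf21, Meis2, Nr2f2 and Prrx1. Both pair 1 arrays were thus lowest of their genotype in 4 of the 9 genes, against 20.1% of all genes. For Twist1 and Prrx2 both pair 1 arrays were the highest of their genotype, as in 33.2% of all genes. All 3 pairs gave a positive difference for 8 of the 9 genes, against 19.1% of all genes, the exception being Nr2f2 in pair 3 (-0.10). The median over the 9 genes was 0.73 in pair 1, 0.62 in pair 2 and 0.17 in pair 3, where the median of all genes was -0.06, -0.01 and 0.03.

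**Figure D3:**
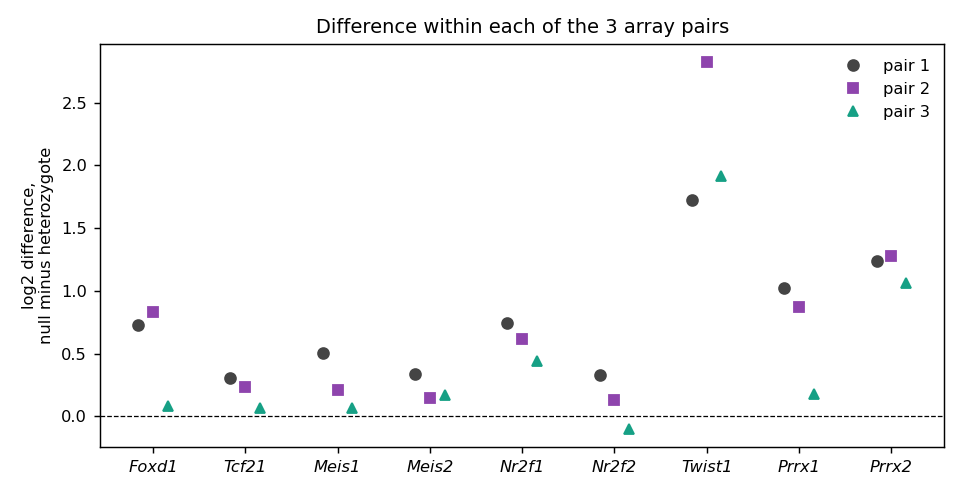
Difference of each gene within the 3 pairs of arrays matched by hybridization controls, null minus heterozygote in log2 units. Twist1 (1.72 to 2.82) and Prrx2 (1.06 to 1.28) are far from 0 in all 3 pairs, whereas for Foxd1 and Prrx1 pair 3 (0.09 and 0.18) lies well under pairs 1 and 2.

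Among 14 measured bHLH relatives, partners and inhibitors of Twist1 and Tcf21, 1 rose and 1 fell, and the list's median difference was 0.20. Of all genes, 0.808% rose, 0.583% fell and 46.4% had positive differences, and with the pair block 2.67% rose and 1.9% fell. These shares apply to every list below. Twist2, the closest paralogue of Twist1, rose. Its levels were 8.21, 8.32 and 8.63 in null cells, against 6.82, 6.21 and 6.84 in heterozygous cells, a difference of 1.76 ± 0.22 (SE) or 3.39-fold (limma, adjusted p = 0.0118), and no single array removed took away its call (6 of 6 fits). The groups were far apart, and null 3 was again the highest array and heterozygote 2 the lowest. Msc, a bHLH factor related to Tcf21 and known from muscle precursors, fell to 4.87 ± 0.16 in null cells, against 6.22 ± 0.40 in heterozygous cells (SD, n = 3 each; limma, adjusted p = 0.0313), a call that held only without heterozygote 1 among the fits with 1 array left out (up to 0.117). Tcf3, Tcf4 and Tcf12, which encode the E proteins that pair with Twist1 and Tcf21, had differences of 0.11, -0.19 and 0.03 and did not pass.

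None of the 8 measured TALE paralogues and partners of Meis1 and Meis2 passed. All 8 had positive differences, against 46.4% of all genes, with a median of 0.23. Those of Tgif2 (0.007), Pbx2 (0.014), Pbx4 (0.078) and Tgif1 (0.093) each turned negative in at least 1 fit with 1 array left out. The others of the list stayed positive in all such fits. The smallest p belonged to Pknox2, a TALE relative of the Meis genes, with 0.79 ± 0.19 (SE; limma, adjusted p = 0.124, and 0.0346 with the pair as a block). Of 8 measured relatives and partners of the Nr2f receptors, none passed, 4 were positive, and the median was 0.01. Zfpm2, whose protein FOG2 binds COUP-TFII, had the smallest p, with levels of 7.37 ± 0.30 in null and 6.04 ± 0.79 in heterozygous cells (SD, n = 3 each; limma, adjusted p = 0.187), and did not pass with the block either. Rxra, a retinoid receptor that pairs with other nuclear receptors and was named after its value was seen, had 0.76 ± 0.24 (SE; limma, adjusted p = 0.250) and was the 1 gene of this list that passed with the block (0.0369).

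The paired-class homeobox relatives of Prrx1 and Prrx2 split in both directions, and none of the 5 measured passed. Uncx, a factor of somites and of kidney mesenchyme, had the smallest p, with levels of 7.92 ± 0.99 in null and 10.11 ± 0.93 in heterozygous cells (SD, n = 3 each) and a difference of -2.19 ± 0.57 (SE; limma, adjusted p = 0.153, and 0.0203 with the pair as a block). Alx1, a craniofacial mesenchyme factor chosen after its value was seen, had 1.63 ± 0.50 (SE; limma, adjusted p = 0.241, and 0.0118 with the block). Of 9 forkhead relatives of Foxd1, none passed in either fit, the differences ran from -0.25 to 0.39, and 4 had means under the 33rd percentile. Foxd4, with the smallest p of these, had -0.25 ± 0.17 (SE; limma, adjusted p = 0.826). It was among the 4 dim genes, with means of 2.78 in null and 3.02 in heterozygous cells.

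Of 11 genes reported elsewhere to be targets of these factors or to depend on them, Dcn rose and Eya1 fell, with a median of -0.01 over the list. Dcn, a matrix proteoglycan that is raised in stroma lacking Foxd1 in the mouse, stood at 8.74 ± 0.43 in null cells, against 7.18 ± 0.08 in heterozygous cells (SD, n = 3 each; limma, adjusted p = 0.0190). Eya1, a co-activator of nephron progenitors, stood at 9.60 ± 0.23 in null cells, against 10.64 ± 0.07 in heterozygous cells (limma, adjusted p = 0.0294). The adjusted p of Dcn was lost without heterozygote 2 or 3 (up to 0.0823), and that of Eya1 in all fits with 1 array left out but 1 (up to 0.129). Pdgfra, a receptor of mesenchymal cells named after its value was seen, had 1.69 ± 0.47 (SE; limma, adjusted p = 0.193) and passed with the pair as a block (0.0229). Tnc, the matrix gene tenascin-C that Prrx1 can activate, had 0.67 ± 0.25 (SE; limma, adjusted p = 0.409), and Cdh1, the epithelial cadherin that Twist1 can repress, had -0.29 ± 0.30 (0.953), both named after their values were seen.

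**Figure D4:**
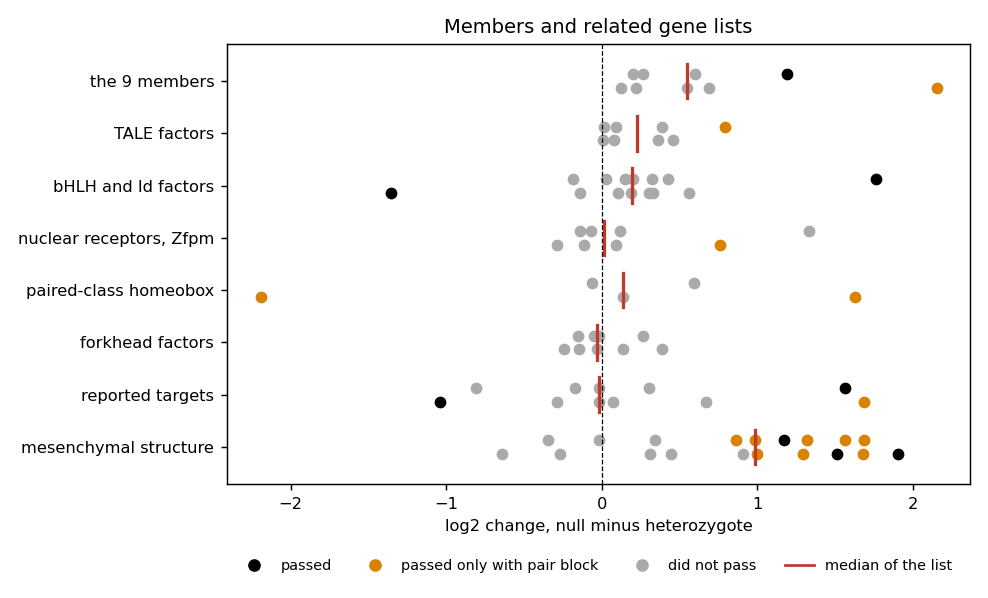
Differences of the 9 members and of 7 lists of related genes, null minus heterozygote in log2 units; each point is a gene, black if it passed, orange if it passed only with the array pair as a block, with the list's median in red. The list medians lie between -0.03 (forkhead factors) and 0.98 (mesenchymal structure), beside 0.55 for the members.

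Of 19 measured genes of mesenchymal structure and surface, 15 had positive and 4 had negative differences, with a list median of 0.98. Of these 3 rose and 0 fell, against 0.808% and 0.583% of all genes. With the pair as a block 11 rose, against 2.67% of all genes. Over all genes that fit called 485 higher, against 147 without the block. Pdgfrb, a receptor of stromal and perivascular cells, stood at 9.91 ± 0.10 in null cells, against 8.01 ± 0.29 in heterozygous cells (SD, n = 3 each; limma, adjusted p = 0.00443), Col1a2, a fibrillar collagen chain, had a difference of 1.51 ± 0.19 (SE; 0.0124), and Zeb2, a repressor of epithelial genes, had 1.18 ± 0.21 (0.0447). The lowest difference of the list was that of Des, the muscle and mesenchymal intermediate filament desmin, at -0.64 ± 0.20 (SE; limma, adjusted p = 0.241, and 0.0643 with the block), with all null arrays below all heterozygote arrays. The mesenchymal cadherin Cdh11 had -0.34 ± 0.18 and Snai2, a repressor that Twist1 can activate, had -0.02 ± 0.21, neither of which passed, and all 3 were named after their values were seen.

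By the root mean square difference of gene-centred log2 values over the 6 arrays, among 13426 genes above the 33rd percentile, the profile nearest to that of Twist1 was that of Pcolce, a procollagen-processing enhancer (0.256), followed by Nr5a1, a gonadal and adrenal nuclear receptor (0.267). Nearest to Prrx2 were 6720468P15Rik (0.0841) and Lhfp (0.0970), to Foxd1 Tmtc1 (0.103) and Arhgef25 (0.103), to Nr2f1 Marveld1 (0.0560) and 4933417D19Rik (0.0725), and to Prrx1 Hoxa5 (0.110) and Klf6 (0.115). For Meis2 they were Gse1 (0.0336) and Tmem47 (0.0454), for Nr2f2 Ccdc88a (0.0600) and again Tmem47 (0.0610), for Tcf21 Vgll4 (0.0366) and Zap70 (0.0404), and for Meis1 Col9a1 (0.0572) and Zfp414 (0.0626). The nearest 2 members to each other were Meis2 and Nr2f2 (0.0928), whereas the member nearest to Twist1, Prrx2, was at 0.712 and ranked at 180 among the genes compared.

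Markers of other cells that the sort could hold also differed in part between the genotypes. All 10 macrophage markers had positive differences, against 46.4% of all genes, with a median of 1.23. Their summed linear level (given as log2) ranged from 10.56 to 12.03 in null and from 9.37 to 10.61 in heterozygous cells. Sums of this kind, here and below, follow the brightest genes of a list most. None of these 10 markers passed, and 2 had means under the 33rd percentile. With the pair as a block 4 were higher, against 2.67% of all genes. Mrc1, a scavenger receptor of macrophages, had the smallest p, with 2.39 ± 0.57 (SE; limma, adjusted p = 0.117). All 7 gonad and adrenal markers were positive, against 46.4% of all genes, with a median of 0.91. Their summed levels were 10.25 to 10.55 in null and 9.22 to 9.26 in heterozygous cells. Hsd3b1, which encodes an enzyme of steroid synthesis, was the 1 marker of this list that rose, by 2.26 ± 0.27 (SE; limma, adjusted p = 0.0106).

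Of 7 measured limb and skeletogenic markers 5 were positive, with a median of 0.12, and 2 had means under the 33rd percentile. Msx1, a homeobox gene of limb and other mesenchyme, rose by 1.60 ± 0.27 (SE, limma adjusted p = 0.0317). Summed levels of the list were 9.50 to 9.69 in null and 8.99 to 9.43 in heterozygous cells. Of 12 neuronal markers 9 were positive, with a median of 0.096, and 3 had means under the 33rd percentile. Nefm (1.44 ± 0.17, SE) and Stmn2 (2.64 ± 0.47), which encode cytoskeletal proteins of neurons, rose. The RNA-binding protein gene Elavl4 (-1.54 ± 0.29) fell. Summed levels of this list were 11.00 to 11.65 in null and 10.53 to 11.16 in heterozygous cells. Of 9 muscle and paraxial markers 5 were positive, with a median of 0.02, and 3 had means under the 33rd percentile. The 1 that fell was the mesodermal homeobox gene Meox2 (-1.77 ± 0.22, SE; limma, adjusted p = 0.0117). Actc1 differed the other way, by 1.11 ± 0.24 (SE; limma, adjusted p = 0.0874, and 0.0402 with the block). Summed levels of this list were 10.38 to 10.58 in null and 10.82 to 11.04 in heterozygous cells. Meox1, the brightest of them, weighs most in this sum and differed by -0.42. Endothelial, neural crest and erythroid lists had no gene that passed, in 10, 3 and 5 measured genes, and 5 of the 10 endothelial markers had means under the 33rd percentile. Their smallest p-values belonged to Kdr, an endothelial receptor (0.38 ± 0.32, SE), Erbb3, a receptor of neural crest (-0.53 ± 0.26), and Klf1, an erythroid factor (0.88 ± 0.43).

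All 10 nephric duct markers had negative differences, with a median of -0.92, and 4 fell, namely Lhx1, Calb1, Ret and Gata3. Their summed levels were 12.90 to 13.27 in null and 13.44 to 13.97 in heterozygous cells. The brightest of them, Epcam, Krt8 and Krt18, weigh most in this sum and differed by -0.06, -0.05 and -0.05. Calb1 differed by -5.97 and Ret by -3.37, which the sum does not show. Of 9 metanephric mesenchyme markers only 1 had a positive difference, and the median was -0.81. Those that fell were Gdnf, Sall1 and Eya1, 3 in number, while Cited1 was the 1 that rose. Six2 had -1.13 ± 0.30 (SE; limma, adjusted p = 0.169, and 0.0190 with the block), with all null arrays below all heterozygote arrays. Summed levels of this list were 12.88 to 13.53 in null and 13.06 to 13.75 in heterozygous cells. Cited1 had the highest null mean of the list, 11.39, and so weighs most in the null sum. Among the list genes that passed, Twist2, Pdgfrb, Nefm, Meox2, Lhx1, Calb1 and Gdnf kept their calls in all 6 fits with 1 array left out. Col1a2 lost its call without null 1 (limma, adjusted p = 0.0601) and Hsd3b1 without heterozygote 3 (0.0542). Zeb2, Msx1, Elavl4 and Cited1 kept theirs in 1 of these 6 fits, Stmn2 and Gata3 in 2, and Ret and Sall1 in 3. The part of these marker shifts in the differences of Prrx2 and Twist1 was not tested.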

How the data were processed

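Amplified, biotin-labelled cDNA, made per the labels' protocols from 10 ng of total RNA of sorted cells with the NuGEN WT-Pico Ovation kit, was hybridized to 1-colour Affymetrix arrays. The authors deposited 1 log2 expression value for each probe set and array. The submitters' processing notes name the tools affy, RMA and limma and give no settings. RMA brings all arrays to one distribution, so a difference in total RNA cannot be seen, and it compresses differences between dim probe sets.

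The platform annotation gave exactly 1 symbol to 34945 of 45037 probe sets that were not array controls, and 9 genes with 25 probe sets were taken by symbol. The test was limma (version 3.58.1, R 4.3.3), two-sided, with no covariates and no filter, and Benjamini-Hochberg adjustment ran over 18193 genes or 45037 probe sets at a threshold of 0.05. The fit was checked on simulated data with independent noise on each array. That check held no array pairs, so it cannot show how such pairs affect the calls. Precision is limited by having 3 arrays per genotype. Alternatives were other priors, scalings and weights, a filter on dim genes, the pair as a block and leaving out each array. The 9 genes and the 17 gene lists were chosen with earlier results of these data known. From each list the genes that passed were named, at most 4, or the one with the smallest p, and for each of the 9 genes the 2 with the nearest profile; other names were chosen after their values were seen. Pax2 is not analysed here, and the genotypes are as labelled.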

Additional observations from a re-analysis of the deposited data

How the results depend on the processing

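The 9 genes were refitted under 15 alternatives each, 135 fits in all, of which 123 kept the direction and the side of the threshold. With other priors, the dim filter, the pair block or the fit over all probe sets, a difference cannot change. In those fits only the call could move. Without heterozygote 1, the differences of Tcf21 (-0.0209), Meis2 (-0.0399) and Nr2f2 (-0.173) turned negative; with 1 array left out they ranged up to 0.432, 0.416 and 0.314, and none of the 3 was called in any fit. Prrx2 lost its call in 5 fits with 1 array left out, and Twist1 gained one in 4 fits. The count of genes that rose, 1, was 2 with each array centred on its median, with array weights or with the pair of arrays as a block, 0 at a threshold of 0.01, and 0 to 2 with 1 array left out. The count of probe sets that rose, 1, was 2 with the pair block, 0 with an intensity-dependent prior or at a threshold of 0.01, and 0 to 2 with 1 array left out. No gene or probe set fell in any of them. The median difference of the 9 genes, 0.55, ranged from 0.41 without heterozygote 2 to 0.66 without heterozygote 3. Over the 148 genes in the lists, 10 rose and 10 fell, against 0.808% and 0.583% of all 18193 genes. With the pair block 28 rose, against 2.67% of all genes, and with array weights 19. With 1 array left out 5 to 14 rose and 4 to 11 fell. These list alternatives were chosen after seeing the data. Over all genes, 147 rose and 106 fell, against 485 and 345 with the pair block, and 41 and 43 without heterozygote 3. The cause of these shifts was not tested. The labels give no shared replicate numbers, so the pair block rests on the hybridization controls alone, and it leaves 2 residual degrees of freedom.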
